A study of Mus musculus with 15 samples.

Results

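Basophils and eosinophils are told apart during development by a small set of transcription factors, and 9 of their genes (Gata1, Gata2, Cebpa, Cebpb, Cebpe, Spi1, Spib, Runx1 and Mitf) were followed here out of 21110 gene rows. The genes were taken by name, with earlier results of these data known. Spi1 stood in the table under its older symbol, Sfpi1. All 9 reached the minimum level for testing, 1 FPKM in at least 2 libraries. FPKM is a count of sequenced fragments scaled to transcript length and library size, given here in whole numbers.

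The RNA came from 3 cell types sorted from the lungs of C57BL6/J mice, in 15 libraries of 8 groups. Papain, a cysteine protease from papaya used as an inhaled allergen, was given into the nose at 50 ug per mouse for 3 days, and naive mice were the controls. The basophil gate took FceR1+ CD49b+ cells without c-kit, and the eosinophil gate SiglecF+ Gr1lo cells without autofluorescence. Natural helper cells (NH, the innate lymphoid cells of type 2 immunity) were lineage-negative and carried Thy1.2, IL7Ra and CD25. The groups were papain basophils, naive basophils, papain CD11c+ eosinophils, papain CD11c- eosinophils, naive eosinophils, papain 3'UTRKO NH, papain NH and naive NH. The 3'UTRKO group had 1 library and each other group had 2. The labels give no age, do not name the gene that 3'UTRKO concerns, and do not say whether libraries of a group came from separate mice. The p-values therefore measure only the spread between these libraries, which may be technical.

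GATA factors bind DNA through zinc fingers. In mice, GATA1 is needed to make eosinophils and GATA2 to make and keep basophils and mast cells. C/EBP factors are leucine zipper proteins: C/EBP alpha sets the granulocyte programme and, with GATA2, the basophil fate, C/EBP epsilon acts late in granule formation, and C/EBP beta is widely induced in myeloid cells. PU.1, the product of Spi1, and its relative Spi-B are ETS factors of myeloid cells and of B and plasmacytoid dendritic cells. RUNX1 acts in basophil development, and MITF, a basic helix-loop-helix factor, promotes mast cells.

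Marker sums were highest in the cell type each library was labelled with, except that the first papain basophil library lay below the first naive eosinophil library in basophil markers. The summed FPKM of a library ran between 374841 and 570208, and 9995 to 13049 genes were above 0. Read numbers are not part of such values, so intervals for counting error are left out. Correlations across genes between replicates (log2 values) lay between 0.889 in papain basophils and 0.972 in papain NH. The 9 basophil markers summed to 684 and 1851 FPKM in papain basophils, against 6464 and 5412 FPKM in naive basophils and at most 932 FPKM in any other library. Eosinophil markers (9 genes) summed to 636 to 2857 FPKM in eosinophils and to at most 519 FPKM elsewhere. NH markers (12 genes) summed to 2123 to 5196 FPKM in NH libraries and to at most 563 FPKM elsewhere.

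Each cell type carried a different GATA factor. Gata2 was the GATA gene of basophils, Gata1 that of eosinophils, and Gata3, the factor of type 2 lymphocytes, that of NH. Papain basophils had 82 and 378 FPKM of Gata2 and naive basophils 664 and 845 FPKM. Every other library had 6 FPKM or less, so basophils did not overlap with any other group. Gata2 was higher in naive basophils than in naive eosinophils, at 2 and 1 FPKM, by 8.26 ± 0.69 on the log2(FPKM + 1) scale (SE; limma adjusted p = 0.000157). It was also higher than in naive NH, at 1 and 0 FPKM, with an adjusted p of 6.3e-05.

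Gata1 had 29 and 31 FPKM in papain CD11c+ eosinophils, 34 and 36 FPKM in papain CD11c- eosinophils, and 36 and 40 FPKM in naive eosinophils. Basophils were far lower, with 1 and 2 FPKM in papain and 3 and 3 FPKM in naive libraries. Gata1 was listed at 0 in all 5 NH libraries. The 3 cell types did not overlap. Naive basophils were lower than naive eosinophils, by a log2 difference of -3.28 ± 0.23 (SE, adjusted p = 6.58e-05). Both naive basophils (adjusted p = 0.000528) and naive eosinophils (adjusted p = 3.31e-06) passed the test against naive NH.

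Gata3 had 267 FPKM in 3'UTRKO NH, 201 and 229 FPKM in papain NH, and 168 and 273 FPKM in naive NH, against at most 7 FPKM in basophils and at most 3 FPKM in eosinophils. Within each library, a single GATA gene took most of the summed Gata1, Gata2 and Gata3 level. Gata2 took 91.1% and 99.2% in papain basophils and 99.3% and 99.5% in naive basophils. Gata1 took 82.9% and 81.6% in papain CD11c+ eosinophils, 85% and 85.7% in papain CD11c- eosinophils, and 94.7% and 97.6% in naive eosinophils. Gata1 thus held a smaller share in each of the 4 papain eosinophil libraries than in the 2 naive ones; the difference in share was not tested.

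**Figure D1:**
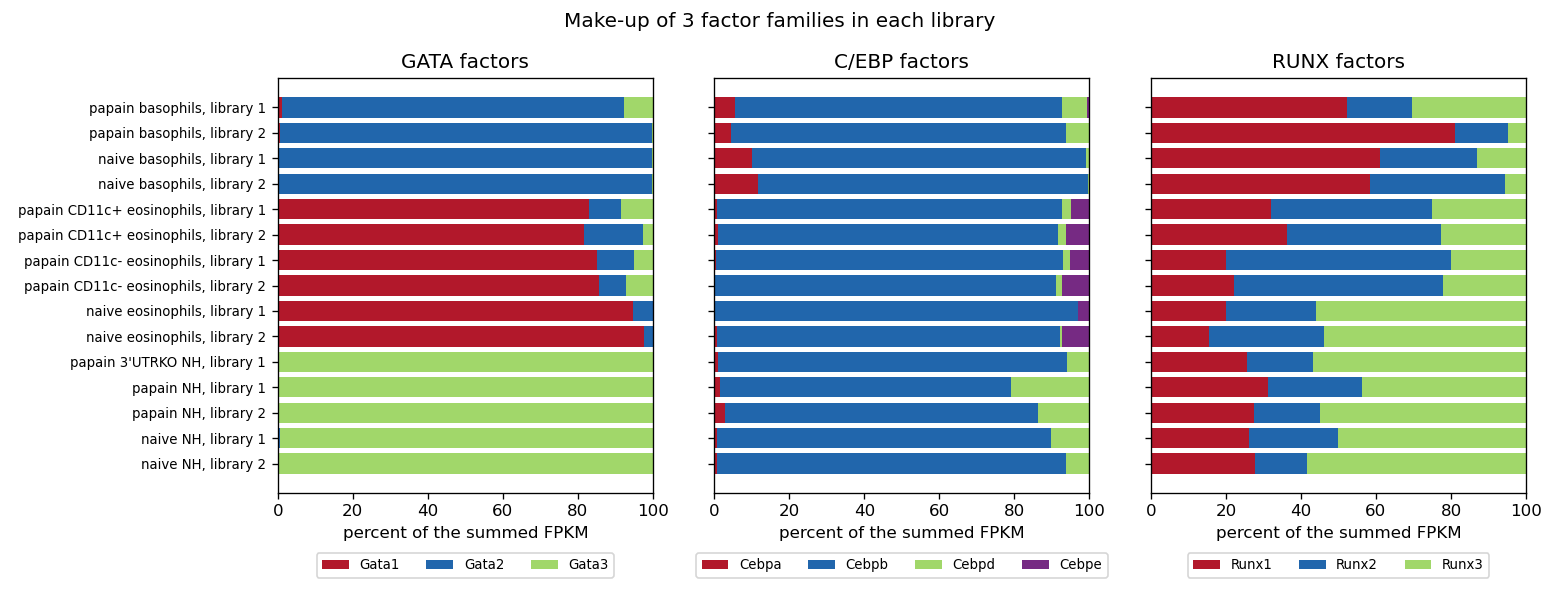
Share of each gene in the summed FPKM of the GATA (Gata1, Gata2, Gata3), C/EBP (Cebpa, Cebpb, Cebpd, Cebpe) and RUNX (Runx1, Runx2, Runx3) genes, in percent, with 1 bar per library. Gata2 fills at least 91.1% of the bars of basophils, Gata1 at least 81.6% of those of eosinophils and Gata3 those of NH, while Cebpb is the largest part of the C/EBP bar in all 15 libraries.

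Of 10 tested genes in a list of GATA relatives and partners, 1 (Tal1) was higher and 1 (Lyl1) lower in naive basophils than in naive eosinophils, a share near the 14.0% of all genes called in that comparison. Tal1, a basic helix-loop-helix partner of GATA factors, had 11 and 9 FPKM in naive basophils and was listed at 0 in both naive eosinophil libraries (adjusted p = 0.0013). Its relative Lyl1 had 5 and 6 FPKM in naive basophils and 63 and 38 FPKM in naive eosinophils, a log2 difference of -2.95 ± 0.27 (SE, adjusted p = 0.000209). Gfi1b, a zinc finger repressor, had 26 and 25 FPKM in naive basophils and 83 and 69 FPKM in naive eosinophils, and did not pass the test (adjusted p = 0.0662). It was listed at 0 in all 5 NH libraries.

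Genes known to be controlled by GATA factors followed the sorted cell type. Of 14 genes listed as GATA-dependent in basophils and mast cells, 10 were higher and 1, Kit, lower in naive basophils than in naive eosinophils, with a median log2 difference of 2.83 against 0 over all genes tested, of which 14.0% were called. Of 9 listed for GATA1 in eosinophils, none was higher and 6 were lower, with a median of -4.38. Ccr3, the eotaxin receptor, was one of them, with 9 and 6 FPKM in naive basophils and 192 and 229 FPKM in naive eosinophils (log2 difference -4.65 ± 0.44, SE, adjusted p = 0.000293). These lists share genes with the markers of the sorted cells, and the GATA1 list is the eosinophil marker list itself, so their direction is no separate evidence. The basophil gate also took FceR1+ cells without c-kit, so the listed genes Fcer1a and Kit concern proteins used in the sort.

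Cebpb was the most abundant C/EBP gene everywhere, while Cebpa went with basophils and Cebpe with eosinophils. Cebpa had 29 and 48 FPKM in papain basophils and 81 and 108 FPKM in naive basophils. It had 11 and 12 FPKM in papain CD11c+ eosinophils, 4 and 3 FPKM in papain CD11c- eosinophils, and 2 and 7 FPKM in naive eosinophils. NH libraries had at most 3 FPKM. Every basophil library stood above every library of the other cell types. Naive basophils exceeded naive eosinophils by 4.27 ± 0.49 on the log2 scale (SE, adjusted p = 0.0006) and naive NH by 5.56 ± 0.49 (SE, adjusted p = 0.000137).

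Cebpe had 73 and 89 FPKM in papain CD11c+ eosinophils, 60 and 88 FPKM in papain CD11c- eosinophils, and 40 and 75 FPKM in naive eosinophils. The 3 eosinophil groups overlapped. Papain basophils had 3 and 1 FPKM, and Cebpe was listed at 0 in both naive basophil libraries and in all 5 NH libraries. Naive basophils and naive eosinophils differed with an adjusted p of 5.56e-05, and naive eosinophils and naive NH with an adjusted p of 2.05e-05. Of 12 granule genes listed as C/EBP epsilon targets, 2 were lower and none higher in naive basophils than in naive eosinophils, a share near the 14.0% of all genes called. The list holds neutrophil granule genes as well, and 9 neutrophil markers summed to 266 and 539 FPKM in naive basophils, against 16654 and 8956 FPKM in naive eosinophils. Most of the eosinophil sum was 1 gene, Retnlg, with 13759 and 7600 FPKM. Cxcr2 went the other way, with 32 and 26 FPKM in naive basophils and 18 and 11 FPKM in naive eosinophils. Of the 9 neutrophil markers 3 were lower in naive basophils, 2 stood at 0 in each naive basophil library, and their part in the levels was not tested.

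Cebpb had 453 and 939 FPKM in papain basophils and 725 and 817 FPKM in naive basophils. Eosinophils had 1364 and 1272 FPKM in the papain CD11c+ gate, 1069 and 1080 FPKM in the papain CD11c- gate, and 921 to 1302 FPKM when naive. NH were lowest, with 110 FPKM in 3'UTRKO, 52 and 91 FPKM in papain, and 132 and 135 FPKM in naive libraries. Basophils and eosinophils overlapped, and both stood above every NH library. Naive basophils and naive eosinophils differed by -0.51 ± 0.36 (log2, SE, adjusted p = 0.459). Against naive NH, Cebpb was higher by 2.52 ± 0.36 in naive basophils (SE, adjusted p = 0.00165) and by 3.03 ± 0.36 in naive eosinophils (SE, adjusted p = 0.000349). Trib1, whose product targets C/EBP alpha for degradation, had 38 and 48 FPKM in naive basophils and 137 and 87 FPKM in naive eosinophils (log2 difference -1.33 ± 0.36, SE, adjusted p = 0.0386). Without any single one of these 4 libraries the adjusted p for Trib1 lay between 0.0539 and 0.244. In all, 2 of 11 C/EBP relatives and partners tested were higher and 2 lower in naive basophils than in naive eosinophils, beside 14.0% of all genes called.

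The ETS factor Spi1 was graded over the cell types. Papain basophils had 85 and 100 FPKM and naive basophils 73 and 85 FPKM. Eosinophils had 261 and 261 FPKM in the papain CD11c+ gate, 249 and 249 FPKM in the papain CD11c- gate, and 541 and 433 FPKM when naive. NH libraries had 1 to 9 FPKM. The cell types did not overlap, with eosinophils highest, basophils between and NH lowest.

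Spi1 was lower in naive basophils than in naive eosinophils by a log2 difference of -2.60 ± 0.65 (SE, adjusted p = 0.0305), and leaving out any single one of the 4 libraries put the adjusted p between 0.0996 and 0.155. Naive basophils exceeded naive NH by 4.66 ± 0.65 (SE, adjusted p = 0.00154), and naive eosinophils exceeded them by 7.26 ± 0.65 (SE, adjusted p = 8.76e-05). Of 12 myeloid genes listed as PU.1 targets, 6 were lower and none higher in naive basophils than in naive eosinophils, beside 14.0% of all genes called. Their median was -1.61 against 0 over all genes. The link of these genes to Spi1 was not tested, so their direction is no separate evidence on PU.1. Itgam, the integrin CD11b, had 24 and 20 FPKM in naive basophils and 271 and 360 FPKM in naive eosinophils (log2 difference -3.77 ± 0.29, SE, adjusted p = 0.000106).

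Spib, the lymphoid ETS factor, had 5 and 2 FPKM in papain basophils and 17 and 23 FPKM in naive basophils. Eosinophils had 9 and 10 FPKM in the papain CD11c+ gate, 7 and 14 FPKM in the papain CD11c- gate, and 2 and 3 FPKM when naive. NH libraries had at most 1 FPKM. Naive basophils were the highest group and did not overlap with any other. They exceeded naive eosinophils by 2.58 ± 0.52 on the log2 scale (SE, adjusted p = 0.0112), with an adjusted p of 0.0805 without the second naive basophil library and 0.0846 without the first naive eosinophil library. They exceeded naive NH by 3.88 ± 0.52 (SE, adjusted p = 0.00123).

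Spib moved with genes of B cells over the whole series. The genes whose group means were most like those of Spib included the B cell genes Ms4a1 and Tnfrsf13c, with Pearson correlations of 0.978 and 0.977 over the 8 groups, a description only, since groups share their sort and libraries. The 9 B cell markers summed to 119 and 38 FPKM in papain basophils and 204 and 371 FPKM in naive basophils. They summed to 163 and 184 FPKM in papain CD11c+ eosinophils, 104 and 271 FPKM in papain CD11c- eosinophils, 58 and 46 FPKM in naive eosinophils, and 4 to 20 FPKM in NH. In both basophil groups and both papain eosinophil gates, the library with more B cell marker signal also had more Spib, and in naive eosinophils it had less. Between naive basophils and naive eosinophils, 2 of the 9 markers were higher, Pax5 among them, beside 14.0% of all genes called, and none of the 9 stood at 0 in either group. Plasmacytoid dendritic cells also use Spib, and 6 of their markers summed to 69 and 118 FPKM in papain basophils, 43 and 25 FPKM in naive basophils, and 23 to 53 FPKM in the other libraries, with 2 of 6 (Bst2 and Tcf4) higher in papain than in naive basophils. The part of either cell type in the Spib level was not tested. In bulk RNA, fewer cells of a type and less RNA per cell cannot be told apart.

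**Figure D2:**
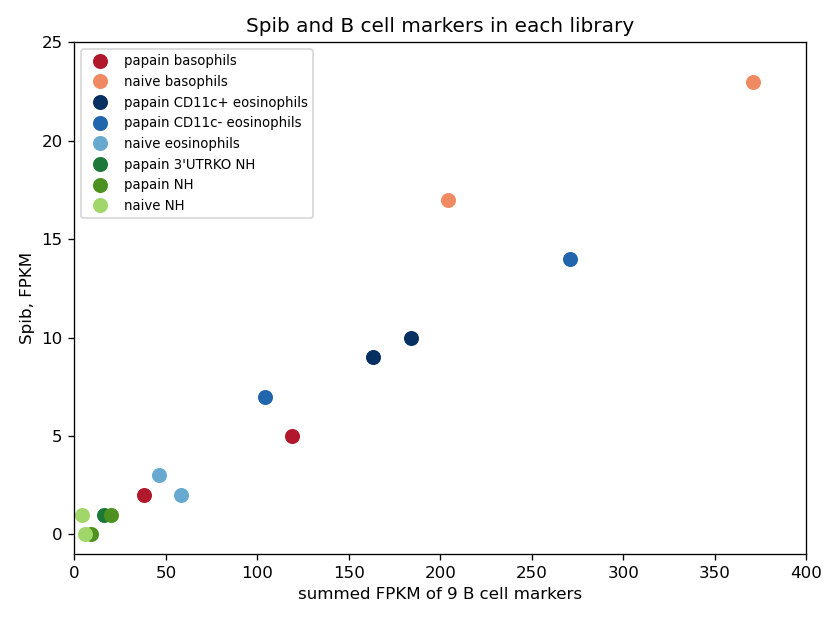
Spib level (FPKM, vertical axis) against the summed FPKM of 9 B cell markers (horizontal axis), with 1 point per library coloured by group. Naive basophils have the most Spib, with 17 and 23 FPKM, papain eosinophils lie between 7 and 14 FPKM, and NH are near the origin.

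Runx1 was above 0 in all 15 libraries. It had 12 and 17 FPKM in papain basophils and 33 and 21 FPKM in naive basophils. Eosinophils had 9 and 8 FPKM in the papain CD11c+ gate, 6 and 8 FPKM in the papain CD11c- gate, and 5 and 4 FPKM when naive. NH had 13 FPKM in 3'UTRKO, 20 and 17 FPKM in papain, and 11 and 10 FPKM in naive libraries. Naive basophils were highest and naive eosinophils lowest, and papain basophils overlapped with papain NH.

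Naive basophils exceeded naive eosinophils by 2.32 ± 0.26 on the log2 scale (SE, adjusted p = 0.0006). They exceeded naive NH by 1.25 ± 0.26 (SE, adjusted p = 0.0116), with 0.0503 without the first naive basophil library and 0.0584 without the second naive NH library. Naive eosinophils were lower than naive NH by a log2 difference of -1.07 ± 0.26 (SE, adjusted p = 0.016). That call was lost without the second naive eosinophil library (adjusted p = 0.0915), the first naive NH library (0.0787) or the second (0.0516). Runx1 was the most abundant of the 3 RUNX genes in all 4 basophil libraries, with 52.2% to 81% of their sum, and Runx3 in all 5 NH libraries, with 43.8% to 58.3%. Naive eosinophils were led by Runx3 (56% and 53.8%) and the 4 papain eosinophil libraries by Runx2 (40.9% to 60%). These shares rest on low rounded values and were not tested. In the second papain CD11c+ library Runx2 had 9 FPKM and Runx1 8 FPKM.

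Mitf was near the lowest level the whole-number values resolve. It had 4 and 2 FPKM in papain basophils, 1 and 1 FPKM in naive basophils, 4 and 6 FPKM in papain CD11c+ eosinophils, and 3 and 2 FPKM in papain CD11c- eosinophils. Naive eosinophils had 2 and 4 FPKM and NH 1 to 2 FPKM. Mitf was called in none of the 15 comparisons by limma, and its unadjusted p was under 0.05 in 6 of them, papain against naive basophils and 5 others, with 0.0219 as the lowest. A set of 6 mast cell markers, without Mitf itself, summed to 199 and 13 FPKM in papain basophils and 570 and 586 FPKM in naive basophils, against at most 112 FPKM elsewhere. Rows for the MITF relatives Tfeb, Tfe3 and Tfec were not analysed here.

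**Figure D3:**
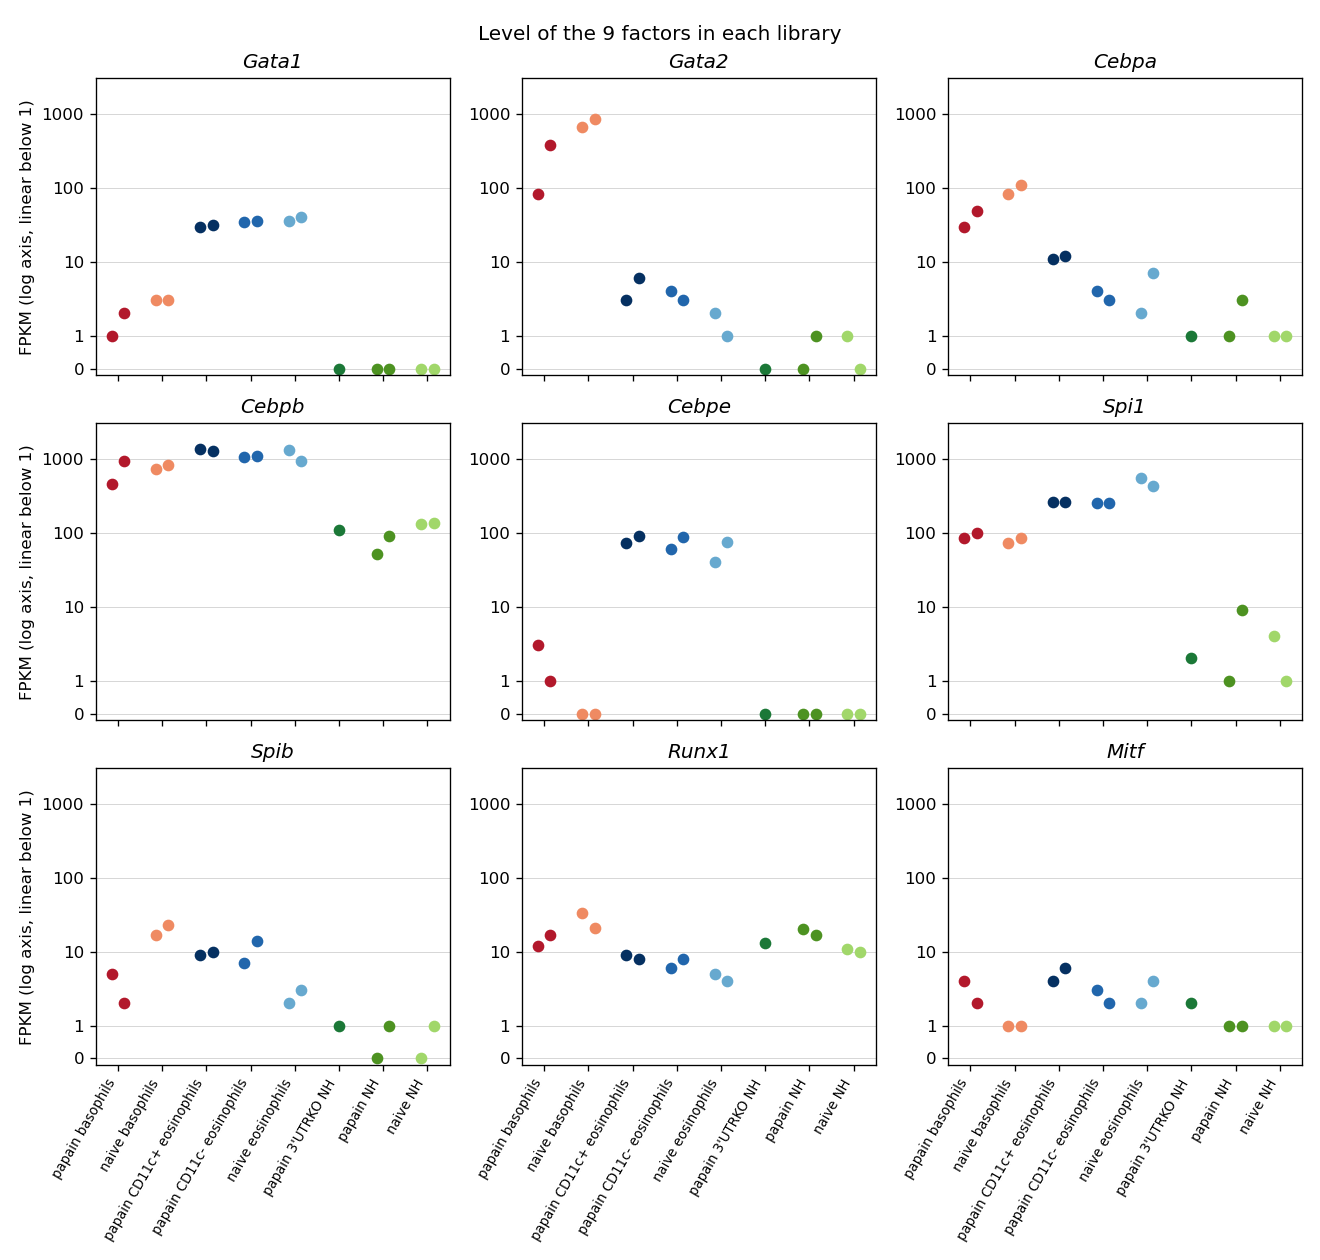
Level of each of the 9 genes (FPKM, log axis that is linear below 1) in the 8 groups, with 1 point per library. Gata2 and Cebpa are highest in basophils, Gata1, Cebpe and Spi1 in eosinophils, and NH have at most 9 FPKM of Gata1, Gata2, Cebpa, Cebpe, Spi1 and Spib.

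Set against all genes tested, the 9 factors were called often between naive cell types. Naive basophils and naive eosinophils differed in 7 of the 9 (4 higher, 3 lower), beside 14.0% of all genes tested. Naive basophils were higher than naive NH in 7 of 9, beside 20.6% of all genes called in either direction. Naive eosinophils and naive NH differed in 5 of 9 (4 higher, 1 lower), beside 28.1%. The median log2 difference of the 9 was -0.51, 2.52 and 1.29 in these comparisons, against medians of 0, -0.34 and -0.21 over all genes. The genes were chosen for their known roles in these cells and with earlier results of these data known. The counts therefore describe them and are no test of the set.

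In papain mice, basophils were higher than CD11c- eosinophils in Gata2 and Cebpa and lower in Gata1 and Cebpe, 4 of 9 factors beside 11.4% of all genes. The log2 differences were 5.31 ± 0.69 for Gata2 (adjusted p = 0.00235), 3.10 ± 0.49 for Cebpa (adjusted p = 0.00568), -3.88 ± 0.23 for Gata1 (adjusted p = 0.000105) and -4.70 ± 0.39 for Cebpe (adjusted p = 0.000467), each ± SE. Without the second CD11c- library the adjusted p for Cebpa was 0.0523. Spi1 (-1.42 ± 0.65, adjusted p = 0.192), Spib (-1.37 ± 0.52, adjusted p = 0.122) and Runx1 (0.95 ± 0.26, adjusted p = 0.0525) did not pass between these groups. Papain basophils exceeded papain NH in 6 of 9 factors, beside 19.7% of all genes: Gata1, Gata2, Cebpa, Cebpb, Cebpe and Spi1. Cebpe, at 3 and 1 FPKM in papain basophils against a listed 0 in papain NH, had an adjusted p of 0.029 there. That call was lost without the first papain basophil library (0.0884) or without the first (0.136) or the second (0.113) papain NH library. Papain CD11c- eosinophils and papain NH differed in 6 of 9, beside 16.6%: Gata1, Cebpb, Cebpe, Spi1 and Spib were higher and Runx1 lower. The Runx1 call was lost without the first CD11c- library (adjusted p = 0.0909) or the first papain NH library (0.0824).

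After papain, basophil libraries had less Spib, Runx1 and Gata1, and had Cebpe at 1 to 3 FPKM. Spib was lower, at 5 and 2 FPKM in papain basophils against 17 and 23 FPKM in naive basophils, by a log2 change of -2.29 ± 0.52 (SE, adjusted p = 0.0145). Runx1 was lower, at 12 and 17 FPKM in papain basophils against 33 and 21 FPKM in naive basophils, by -0.84 ± 0.26 (SE, adjusted p = 0.0466). Gata1 was lower, at 1 and 2 FPKM in papain basophils against 3 and 3 FPKM in naive basophils, by -0.71 ± 0.23 (SE, adjusted p = 0.0493). Cebpe had 3 and 1 FPKM in papain basophils and was listed at 0 in naive basophils (adjusted p = 0.0233). The papain and naive libraries did not overlap for any of these 4 genes. The 4 calls of 9 stood beside 26.0% of all genes tested, the second highest background of the 15 comparisons, and the median change of the 9 was -0.71 against 0.50 over all genes.

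Each of these calls was lost without some single library. Without the first papain basophil library only Spib was called, without the first naive library only Spib, and without the second naive library only Runx1. Without the second papain library Gata1, Cebpe, Runx1, Gata2 and Mitf were called. The adjusted p for Gata1 in the first 3 cases was 0.1, 0.101 and 0.152, with a log2 change of -0.42 without the first papain library. For Cebpe it was 0.0933, 0.0648 and 0.104. Spib had 0.0741 without the second papain library and 0.0943 without the second naive library. Runx1 had 0.168 without the first papain library and 0.204, at a log2 change of -0.52, without the first naive library. The adjusted p for Gata1 was 0.0506 with a pseudocount of 0.5, and that for Cebpe 0.0688 after quantile normalization.

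Gata2 and Cebpa, the factors with the highest levels in basophils relative to the other cell types, did not pass the test after papain, although both papain libraries stood below both naive ones. Gata2 had 82 and 378 FPKM in papain basophils and 664 and 845 FPKM in naive basophils, a log2 change of -2.08 ± 0.69 (SE, adjusted p = 0.0546). Cebpa had 29 and 48 FPKM in papain basophils and 81 and 108 FPKM in naive basophils, a change of -1.30 ± 0.49 (SE, adjusted p = 0.081). The Gata2 change was -0.98 without the first papain library (adjusted p = 0.266) and -3.18 without the second (adjusted p = 0.0129). Both genes passed when libraries were rescaled in 3 other ways, with adjusted p between 0.021 and 0.0262 for Gata2 and between 0.0189 and 0.0361 for Cebpa. In the deposited scale the median change of all genes in this comparison was 0.50, and relative to it Gata2 lay at -2.58, Cebpa at -1.80, Spib at -2.79, Runx1 at -1.34 and Gata1 at -1.21. Of all called genes 85.1% were higher in papain basophils, against 45.4% after quantile normalization, 65.5% after median-ratio scaling and 74.3% with small RNA genes removed and equal totals.

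Cebpb (-0.24 ± 0.36, adjusted p = 0.679), Spi1 (0.22 ± 0.65, adjusted p = 0.866) and Mitf (0.95 ± 0.34, adjusted p = 0.0722) did not pass in papain against naive basophils, each as a log2 change ± SE. The sign for Spi1 turned negative under the 3 other scalings and that for Cebpb turned positive without the first papain library. The Mitf change was 0.58 without the first papain library (adjusted p = 0.262), 1.32 without the second (adjusted p = 0.0414) and 0.27 after quantile normalization (adjusted p = 0.64).

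**Figure D4:**
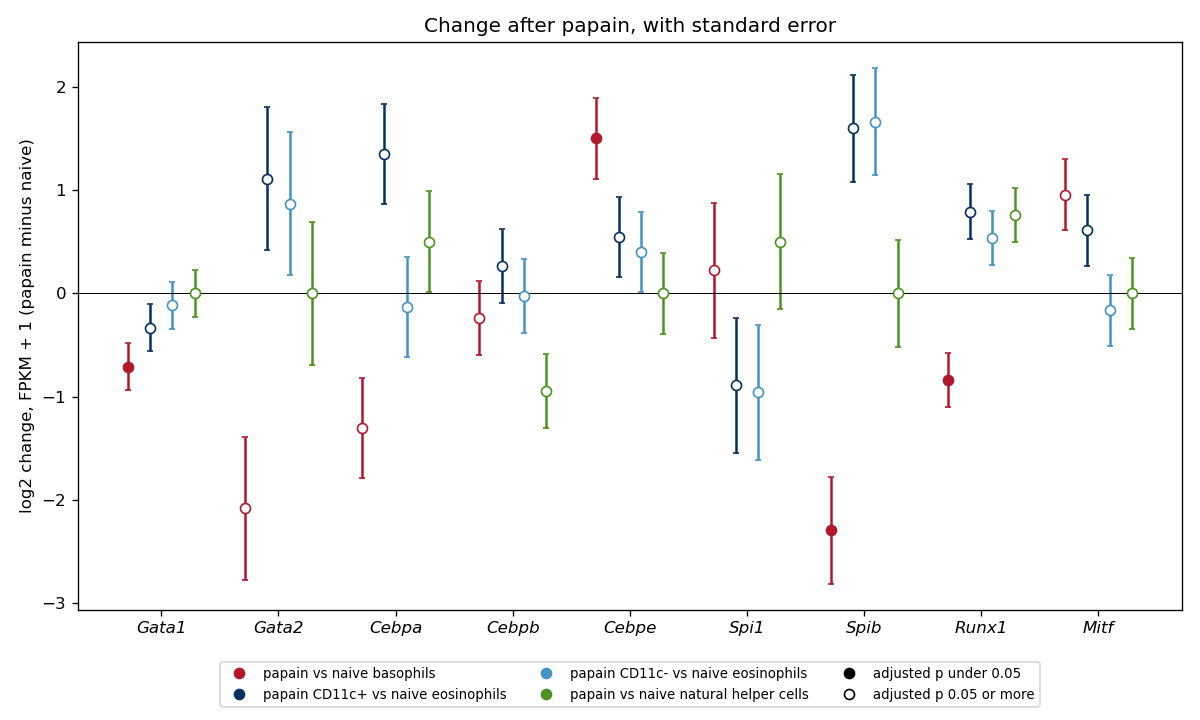
Log2 change of FPKM + 1 after papain (vertical axis, papain minus naive, points with standard errors) for the 9 genes in basophils, both eosinophil gates and NH. Filled points passed the test; only basophils have any, and the value of Cebpe there, against a listed 0, depends on the added 1.

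Cell type markers moved with these basophil changes. Of 9 basophil markers, 8 were lower in papain basophils, and none stood at 0 in any basophil library. Hdc, which makes histamine, had 375 and 1188 FPKM in papain basophils and 2955 and 3199 FPKM in naive basophils, a log2 change of -2.20 ± 0.57 (SE, adjusted p = 0.0232). That call was lost without the first papain library (-1.37, adjusted p = 0.105), the first naive library (0.0639) or the second naive library (0.114). Ms4a2, a chain of the IgE receptor, had 5 and 5 FPKM in papain basophils and 47 and 50 FPKM in naive basophils (-3.04 ± 0.29, SE, adjusted p = 0.000453). Fcer1a, the chain that binds IgE, had 23 and 18 FPKM in papain basophils and 141 and 194 FPKM in naive basophils (-2.96 ± 0.41, SE, adjusted p = 0.00177).

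Of the 14 GATA-dependent genes of basophils and mast cells, 11 were lower and none higher in papain basophils, with a median change of -2.31 against 0.50 over all genes. Some markers of neutrophils, alveolar macrophages, fibroblasts, endothelium and epithelium were higher in papain basophils, while 1 of 5 mast cell markers tested (Cpa3) and 3 of 9 B cell markers were lower. Of all genes tested, 26.0% were called in this comparison, 3152 higher and 553 lower. Neutrophil markers summed to 3226 and 7294 FPKM in papain basophils and 266 and 539 FPKM in naive basophils, with 4 of 9 higher. S100a8 alone had 1777 and 4038 FPKM of the papain sums. Alveolar macrophage markers summed to 12134 and 388 FPKM in papain basophils and 80 and 57 FPKM in naive basophils, with 4 of 9 higher. Chi3l3 alone had 10500 and 109 FPKM of these papain sums. Fibroblast markers summed to 928 and 374 FPKM in papain basophils and 13 and 3 FPKM in naive basophils, with 7 of 7 higher. Endothelial markers summed to 114 and 349 FPKM in papain basophils and 50 and 29 FPKM in naive basophils, with 6 of 8 higher. Epithelial markers summed to 20839 and 35491 FPKM in papain basophils and 6694 and 8768 FPKM in naive basophils, with 8 of 12 higher. Most of these sums was Scgb1a1, with 19550 and 32382 FPKM in papain and 6363 and 8531 FPKM in naive basophils. No neutrophil, fibroblast, endothelial or epithelial marker stood at 0 in the papain libraries, and 1 alveolar macrophage marker did in the second. The part of these cells in the changes of the 9 factors was not tested.

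Set against Hdc in the same library, a ratio chosen after its values were seen, Gata2 was similar in papain and naive basophils. It had 21.9 and 31.8 FPKM per 100 FPKM of Hdc in papain basophils and 22.5 and 26.4 in naive basophils, and the groups overlapped. Cebpa had 7.73 and 4.04 per 100 Hdc in papain basophils and 2.74 and 3.38 in naive basophils. Cebpb had 121 and 79.0 in papain basophils and 24.5 and 25.5 in naive basophils. Spi1 had 22.7 and 8.42 in papain basophils and 2.47 and 2.66 in naive basophils. For Cebpa, Cebpb, Spi1 and Runx1 both papain libraries were above both naive libraries in this ratio, and Spib overlapped. Because Hdc itself was lower in papain basophils, a ratio above that of naive libraries does not show more of the factor, and with 2 libraries each no test was made. The ratio depends on the marker chosen. Per 100 FPKM of the summed basophil markers, which hold Hdc, Gata2 had 12.0 and 20.4 in papain and 10.3 and 15.6 in naive basophils. Ms4a2 had 5 FPKM in both papain libraries, where Gata2 had 82 and 378 FPKM. Hdc is not particular to basophils, with 716 and 360 FPKM in naive eosinophils. It is also on the list of GATA-dependent genes, as are other basophil markers in the sum, such as Fcer1a, Ms4a2 and Mcpt8. A similar ratio of Gata2 to Hdc or to this sum therefore does not show that Gata2 was unchanged.

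**Figure D5:**
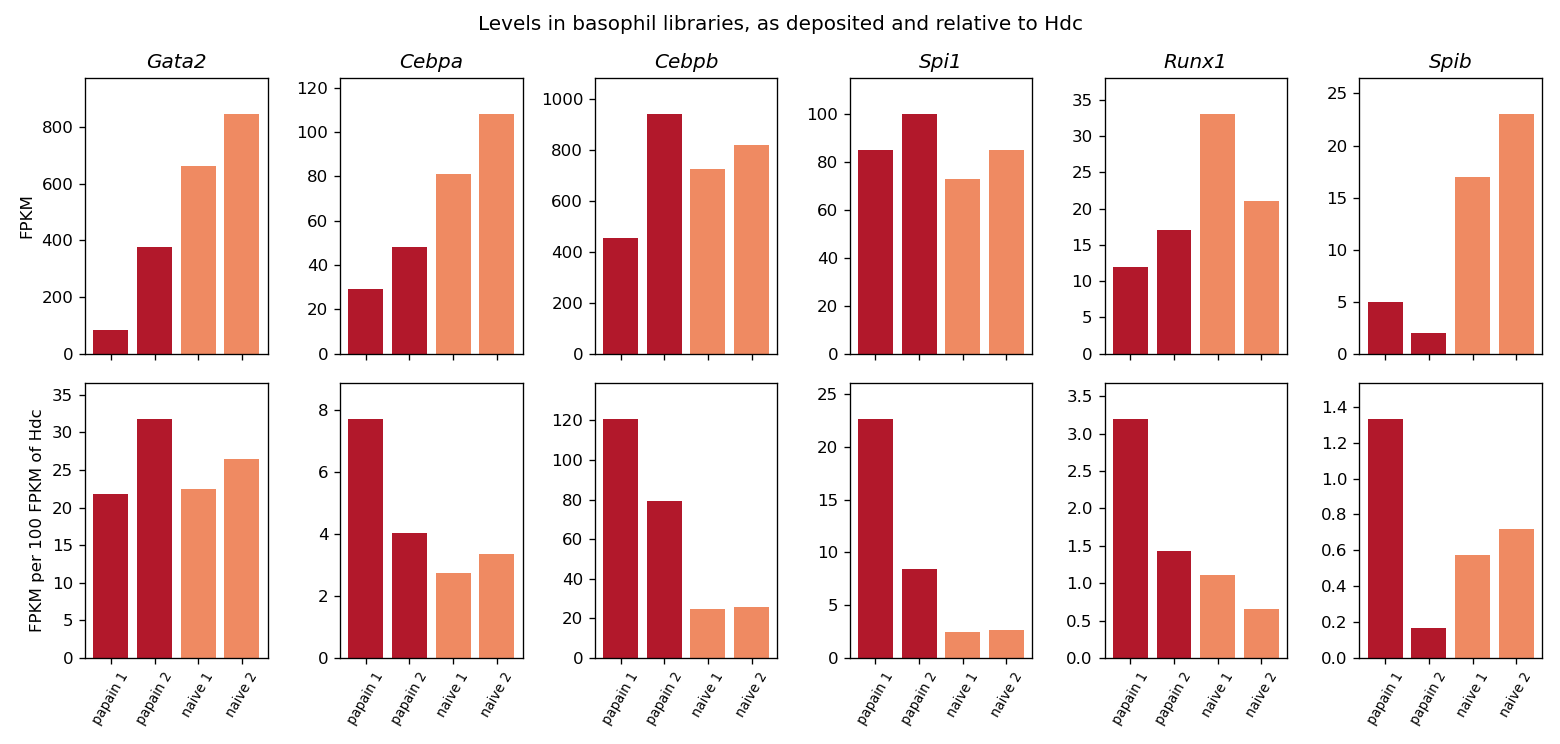
Upper row, FPKM of 6 factors in the 4 basophil libraries; lower row, the same per 100 FPKM of Hdc in that library, with 1 bar per library and every axis starting at 0. The Gata2 bars differ between papain and naive libraries in the upper row and are of similar height (21.9 to 31.8) in the lower one. Hdc is itself listed as GATA-dependent, so similar ratios do not show that Gata2 was unchanged.

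Some B cell markers were lower in papain basophils, as Spib was. Of 9 B cell markers, 3 were lower and none higher in papain basophils, Pax5 and Fcrla among them. Over all 14257 genes tested, 553 were called lower and 3152 higher. Pax5, the factor that maintains B cell identity, had 1 and 2 FPKM in papain basophils and 4 and 6 FPKM in naive basophils (log2 change -1.27 ± 0.30, SE, adjusted p = 0.0158), with 0.0535 without the first papain library and 0.102 without the second naive library. In papain basophils 1 B cell marker stood at 0, in the second library, and none did in naive basophils.

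Some relatives of the 9 factors passed the test in papain against naive basophils, in shares near or below the 26.0% of all genes called there. Some markers of other cells also rose in these libraries, and the part of such cells in the changes of the relatives was not tested. Cebpd, the C/EBP gene of acute inflammation, had 35 and 63 FPKM in papain basophils and 8 and 4 FPKM in naive basophils, a log2 change of 2.84 ± 0.39 (SE, adjusted p = 0.00178). Runx2 had 4 and 3 FPKM in papain basophils and 14 and 13 FPKM in naive basophils (-1.70 ± 0.32, SE, adjusted p = 0.00681). Ets1, an ETS factor of lymphocytes, had 119 and 129 FPKM in papain basophils and 283 and 243 FPKM in naive basophils (-1.08 ± 0.26, SE, adjusted p = 0.0172). The Ets1 groups did not overlap, yet without any single one of these libraries the adjusted p was between 0.0529 and 0.0652.

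Gfi1b had 4 and 17 FPKM in papain basophils and 26 and 25 FPKM in naive basophils (-1.48 ± 0.47, SE, adjusted p = 0.0485). Its change was -0.56 without the first papain library (adjusted p = 0.0616) and -2.41 without the second (0.00016), and the call was lost without the first (0.127) or the second (0.168) naive library, with a pseudocount of 0.5 (0.0543) or with no filter on low values (0.0561). Among relatives and partners tested, 2 rose and 1 fell of 10 for GATA, 2 rose and 1 fell of 11 for C/EBP, 1 rose and 2 fell of 14 for ETS, and none rose and 1 fell of 6 for RUNX, beside 26.0% of all genes called. Of 28 other myeloid factors 9 rose and 1 fell. Of genes listed as targets, 5 of 12 for C/EBP epsilon rose and none fell (among them the neutrophil genes S100a8, Lcn2 and Mmp9), 2 rose and 1 fell of 12 for PU.1, 1 rose and 2 fell of 12 for Spi-B, 3 rose and none fell of 9 for MITF, and none rose and 2 fell of 9 for GATA1 in eosinophils. In the MITF list Kit and the mast cell genes Cma1, Tpsb2 and Mcpt4 stood lower in both papain basophil libraries than in both naive ones. Ctsk, Acp5, Atp6v0d2 and Gpnmb stood higher in both, most in the first, which had the most alveolar macrophage marker signal. Ctsk, for one, had 330 and 14 FPKM in papain and 3 and 5 FPKM in naive basophils. The part of other cells in these changes was not tested. Median changes of the 5 lists of factors were 0.15, 0, 0.15, -0.10 and 0.57 against 0.50 over all genes.

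In eosinophils no factor among the 9 passed the limma test after papain. In the CD11c+ gate 0 of 9 were called beside 12.1% of all genes, and 3 had an unadjusted p under 0.05. In the CD11c- gate 0 of 9 were called beside 2.24%, and 1 had an unadjusted p under 0.05. Gata1 had a log2 change of -0.33 ± 0.23 in the CD11c+ gate (SE, adjusted p = 0.391) and -0.11 ± 0.23 in the CD11c- gate (SE, adjusted p = 0.936). Cebpe had 0.55 ± 0.39 (SE, adjusted p = 0.396) and 0.40 ± 0.39 (SE, adjusted p = 0.739) in the same gates. Both gates were compared with the same 2 naive libraries.

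For Spi1, Spib, Runx1 and Gata2 the papain and naive eosinophils did not overlap, yet none of these genes passed. Spi1 had 261 and 261 FPKM in the CD11c+ gate and 249 and 249 FPKM in the CD11c- gate, against 541 and 433 FPKM in naive eosinophils. All 4 papain libraries were below both naive ones, with log2 changes of -0.89 ± 0.65 (SE, adjusted p = 0.412) and -0.96 ± 0.65 (SE, adjusted p = 0.604). The SE of Spi1 comes from 1 spread shared by all 15 libraries. These include NH libraries at 1 and 9 FPKM (papain) and 4 and 1 FPKM (naive), so it is not the spread of eosinophils alone. A fit to the compared groups only did not call Spi1 in either gate. Spib was above both naive libraries in all 4 papain libraries, with changes of 1.60 ± 0.52 in the CD11c+ gate (SE, adjusted p = 0.0771) and 1.66 ± 0.52 in the CD11c- gate (SE, adjusted p = 0.175). None of the 9 B cell markers was called in either gate, although their sum was 163 and 184 FPKM in the CD11c+ gate and 104 and 271 FPKM in the CD11c- gate, against 58 and 46 FPKM in naive eosinophils.

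Cebpa, at 11 and 12 FPKM in the CD11c+ gate against 2 and 7 FPKM in naive eosinophils, had a log2 change of 1.35 ± 0.49 (SE, adjusted p = 0.103). The change was 0.64 without the first naive library (adjusted p = 0.527) and 2.06, past the threshold, without the second (adjusted p = 0.0492). Runx1, at 9 and 8 FPKM in the CD11c+ gate against 5 and 4 FPKM in naive eosinophils, had a log2 change of 0.79 ± 0.26 (SE, adjusted p = 0.0835). In the CD11c- gate Runx1 had 6 and 8 FPKM, a change of 0.54 ± 0.26 (SE, adjusted p = 0.417). Gata2 had 3 and 6 FPKM in the CD11c+ gate and 4 and 3 FPKM in the CD11c- gate, against 2 and 1 FPKM in naive eosinophils. Its changes were 1.11 ± 0.69 (SE, adjusted p = 0.335) and 0.87 ± 0.69 (SE, adjusted p = 0.667). The naive libraries themselves differed in eosinophil granule genes, with 86 and 1519 FPKM of Prg2 and 0 and 72 FPKM of Epx, while Gata1 stood at 36 and 40 FPKM and Cebpe at 40 and 75 FPKM in them. The macrophage marker C1qa had 58 and 47 FPKM in the CD11c+ gate and 0 and 2 FPKM in naive eosinophils. Csf1r (56 and 47 against 125 and 201 FPKM) and Adgre1 (137 and 117 against 199 and 320 FPKM) went the other way. The part of macrophages in the Cebpa level was not tested.

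Among relatives and partners of the 9 factors, Cebpd and Ets1 passed in both eosinophil gates. Trib2 and Zfpm2 (higher) and Cbfa2t3 (lower) passed in the CD11c+ gate, where 12.1% of all genes were called. Trib2 had 11 and 14 FPKM there and Cbfa2t3 3 and 1 FPKM, against a listed 0 and 10 and 8 FPKM in naive eosinophils. Zfpm2, with 1 and 3 FPKM against a listed 0, was near the lowest level the whole-number values resolve. Cebpd had 35 and 29 FPKM in the CD11c+ gate and 22 and 17 FPKM in the CD11c- gate, against 3 and 5 FPKM in naive eosinophils. Its log2 changes were 2.75 ± 0.39 (SE, adjusted p = 0.00377) and 2.05 ± 0.39 (SE, adjusted p = 0.0341). The second of these was lost without any single library of the comparison (adjusted p between 0.0831 and 0.259). Ets1 had 60 and 52 FPKM in the CD11c+ gate and 35 and 67 FPKM in the CD11c- gate, against 10 and 9 FPKM in naive eosinophils, with changes of 2.44 ± 0.26 (SE, adjusted p = 0.00118) and 2.24 ± 0.26 (SE, adjusted p = 0.00429). Fibroblast markers were also higher there, 7 of 7 in the CD11c+ gate and 6 of 7 in the CD11c- gate. They summed to 687 and 617 FPKM in the CD11c+ gate and 451 and 274 FPKM in the CD11c- gate, against 1 and 5 FPKM in naive eosinophils. None stood at 0 in the papain gates, and 6 and 3 of the 7 did in the naive libraries. Epithelial markers summed to 10070 and 8481 FPKM in the CD11c+ gate and 6642 and 9115 FPKM in the CD11c- gate, against 725 and 1817 FPKM in naive eosinophils, with 5 and 2 of 12 higher in these gates. Scgb1a1 alone had 8503 and 7483 FPKM in the CD11c+ gate, 5044 and 8407 FPKM in the CD11c- gate and 690 and 1771 FPKM in naive eosinophils. The 8 T cell markers summed to 85 and 81 FPKM in the CD11c+ gate and 18 and 95 FPKM in the CD11c- gate, against 2 and 1 FPKM in naive eosinophils. Of these 1 was higher in the CD11c+ gate and none in the CD11c- gate, and 6 and 7 of the 8 stood at 0 in the naive libraries. The part of these cells in the changes of Cebpd and Ets1 was not tested.

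Between the 2 gates of papain eosinophils 0 of 9 factors passed the limma test, beside 0.0561% of all genes called. Cebpa had an unadjusted p under 0.05, with 11 and 12 FPKM in CD11c+ and 4 and 3 FPKM in CD11c- eosinophils, a log2 difference of 1.48 ± 0.49 (SE, adjusted p = 0.513). The gates did not overlap for Cebpa. Macrophage markers differed between the gates as well. C1qa had 58 and 47 FPKM in CD11c+ and 5 and 6 FPKM in CD11c- eosinophils. Csf1r (56 and 47 against 97 and 69 FPKM) and Adgre1 (137 and 117 against 222 and 144 FPKM) went the other way. The part of macrophages in the Cebpa level was not tested. Gata1 differed by -0.22 ± 0.23 and Cebpe by 0.15 ± 0.39 (log2, SE, CD11c+ minus CD11c-).

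In NH, none of the 9 factors passed the limma test after papain (beside 0.786% of all genes), and 2 had an unadjusted p under 0.05. Cebpb had 52 and 91 FPKM in papain NH against 132 and 135 FPKM in naive NH, a log2 change of -0.95 ± 0.36 (SE, adjusted p = 0.348). Runx1 had 20 and 17 FPKM in papain NH against 11 and 10 FPKM in naive NH, a change of 0.76 ± 0.26 (SE, adjusted p = 0.309). For neither gene did the groups overlap, and no gene of the lists of relatives, partners or targets was called. Between the single 3'UTRKO library and papain NH 0 of 9 factors passed (beside 0.568% of all genes), and none had an unadjusted p under 0.05. With 1 library, its spread is assumed to be that of the other groups. Cebpb had 110 FPKM in the 3'UTRKO library, above papain NH, and Runx1 had 13 FPKM, below papain NH (adjusted p = 0.746 and 0.769).

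Papain responses were compared between cell types as differences of log2 changes. The response of basophils minus that of CD11c- eosinophils was called for 1 of 9, Spib, beside 2.36% of all genes, at -3.95 ± 0.73 (SE, adjusted p = 0.0311). Spib was lower in both papain basophil libraries than in both naive basophil libraries, and higher in both CD11c- eosinophil libraries than in both naive eosinophil libraries. For Gata2 that difference was -2.95 ± 0.97 (SE, adjusted p = 0.173). It was -1.85, not past the threshold, without the first papain basophil library and -4.04, past the threshold, without the second (adjusted p = 0.035). The response of basophils minus that of NH was called for 1 of 9, Runx1, beside 6.75%, at -1.60 ± 0.37 (SE, adjusted p = 0.041). The response of CD11c- eosinophils minus that of NH was called for 0 of 9, beside 1.21%, and none had an unadjusted p under 0.05. Leaving out single libraries ended both calls: the adjusted p for Spib reached at most 0.119 and for Runx1 at most 0.15.

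Genes most like each factor over the 8 group means were searched among 6399 named genes whose highest group mean was at least 10 FPKM. For Gata1 they were Ccr3 (Pearson r = 0.998), a row named Siglec5, an ambiguous older symbol (0.993), and Ncf4 (0.993), and for Gata2 Cd200r3 (0.986), a basophil surface receptor, Kcnj2 (0.983) and Tal1 (0.981). For Cebpa they were Trf (0.992), Lat2 (0.985) and Mcpt4 (0.982), a mast cell protease. For Cebpe they were Zfp819 (0.999), Serpina11 (0.994) and Prg2 (0.991), the eosinophil major basic protein. For Cebpb they were Asph, Nfe2 and Grina (0.991 to 0.983), for Spi1 they included Cybasc3 (0.997) and Bcl3 (0.995), and for Runx1 Ank, Slc7a6 and Inf2 (0.971 to 0.961). With 8 means of mostly 2 libraries, such values rank genes and are no test. Mitf, with no group mean of 10 FPKM, was left out.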

How the data were processed

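RNA of sorted mouse lung cells was sequenced after poly(A) selection from 10 ng of RNA, per the labels' protocols. Per the submitters' processing notes, TopHat 1.4.0, Cufflinks 1.3.0 and mm9 were used. The deposited values are whole-number scores by gene symbol, with no unit in the header; they were read as rounded Cufflinks FPKM, and annotation, strand use and rounding are not given in the sources used here. Rounding makes values near 1 FPKM coarse.

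The 14257 genes reaching 1 FPKM in at least 2 libraries were tested as log2(FPKM + 1) in limma 3.58.1 (R 4.3.3), with a coefficient per group over 15 libraries (7 residual and 1.87 prior degrees of freedom), a trended prior, and two-sided p-values adjusted by Benjamini and Hochberg's method within each of 15 comparisons, at 0.05. Each gene thus has 1 estimate of spread, shared by all 15 libraries, also where groups differ in spread. The model was run on simulated data with the same spread in every group, which does not show how it behaves with unequal spread. Alternatives were another pseudocount, no filter, 3 scalings, fits to the compared groups only, a replicate block, and leaving out each library. Named genes were the 9 members, up to 4 called genes per list that averaged at least 5 FPKM in a group, family levels, defining markers and the 3 genes most like each member; some of these are not reported here. The members and lists were chosen with earlier results of these data known. Plots were drawn with matplotlib.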

Additional observations from a re-analysis of the deposited data

Results flagged for a closer look

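The papain response of Spib differed between basophils and CD11c- eosinophils, by a test of the difference itself (-3.95 on the log2 scale, SE 0.73, adjusted p = 0.0311). Spib had 5 and 2 FPKM in papain and 17 and 23 FPKM in naive basophils, and 7 and 14 FPKM in papain CD11c- and 2 and 3 FPKM in naive eosinophils. The summed B cell markers had the same order of groups, and their part was not tested. The call was lost without the second papain basophil library (adjusted p = 0.0622), the second naive basophil library (0.11), either CD11c- library (0.0506 and 0.119) or either naive eosinophil library (0.117 and 0.0855).

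The papain response of Runx1 differed between basophils and NH, by the same kind of test (-1.60, SE 0.37, adjusted p = 0.041). Runx1 had 12 and 17 FPKM in papain and 33 and 21 FPKM in naive basophils, and 20 and 17 FPKM in papain and 11 and 10 FPKM in naive NH. The call was lost without the first papain basophil library (adjusted p = 0.0553), the first naive basophil library (0.0732), either papain NH library (0.15 and 0.0849) or either naive NH library (0.0883 and 0.101).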

How the results depend on the processing

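Of 41 calls of the 9 factors, 15 held their direction and call under every alternative run. A fit to the compared groups only, which leaves fewer libraries for the spread, called 0 factors in papain against naive basophils, 0 in papain basophils against papain NH, 1 in papain basophils against papain CD11c- eosinophils, 4 in naive basophils against naive NH, 0 in either difference of papain responses that had a call, and 1 (Mitf) in 3'UTRKO against papain NH. Quantile normalization called 8 in naive eosinophils against naive NH and 2 (Spib and Runx1) in the basophil minus NH response, and a pseudocount of 0.5 called 0 in the basophil minus CD11c- response. Whether replicate numbers pair samples is not known. Same-numbered deviations correlated above 0.1 in 1 of 21 pairs of groups (range -0.153 to 0.116), which cannot settle whether groups shared mice or a sort. The replicate block called 2 (Cebpe and Spib) in papain against naive basophils and 0 in the basophil minus NH response, and moved the count of called factors in no other comparison by over 1.5 times.

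With single libraries left out, the factors called ranged between 1 and 5 in papain against naive basophils and between 0 and 1 in CD11c+ against naive eosinophils. They ranged between 0 and 1 in the basophil minus CD11c- response and between 0 and 2 in the basophil minus NH response. Over all genes, calls in papain against naive basophils then ranged between 1267 and 3614, and those in CD11c+ against naive eosinophils between 378 and 2074. They ranged between 57 and 167 (320 with all libraries) in CD11c- against naive eosinophils, 71 and 161 (112) in papain against naive NH, and 2 and 506 (8) between the CD11c gates. Between cell types they ranged between 939 and 1873 (1990) in naive basophils against naive eosinophils, 1423 and 2738 (2935) in naive basophils against naive NH, and 2425 and 2816 (4007) in naive eosinophils against naive NH. In papain mice they ranged between 473 and 2648 (1624) in basophils against CD11c- eosinophils, 736 and 3865 (2813) in basophils against NH, and 1081 and 1535 (2366) in CD11c- eosinophils against NH. For the differences of responses they ranged between 141 and 1105 (336) in basophils minus CD11c- eosinophils, 318 and 1830 (963) in basophils minus NH, and 14 and 183 (172) in CD11c- eosinophils minus NH. The background shares move with these counts. Fits to the compared groups only called 467 genes against 3705 in papain against naive basophils, 735 against 1730 in CD11c+ against naive eosinophils, and 1024 against 320 in CD11c- against naive eosinophils. They called 521 against 112 in papain against naive NH, 157 against 8 between the CD11c gates, and 2719 against 81 in 3'UTRKO against papain NH. They called 1260 against 1990 in naive basophils against naive eosinophils, 1492 against 2935 in naive basophils against naive NH, 428 against 1624 in papain basophils against CD11c- eosinophils, and 791 against 2813 in papain basophils against papain NH.

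Signs turned for uncalled changes only. Spi1 in papain basophils was -0.28 after median-ratio scaling, -0.19 after quantile normalization and -0.10 with small RNA genes removed and equal totals. With single libraries left out, Cebpb there ranged between -0.76 and 0.29 (positive without the first papain library), and Cebpe in CD11c- against naive eosinophils between -0.045 and 0.85 (negative without the first naive library). The causes were not tested. Depth is unknown, and values of 1 to 3 FPKM rest on rounding.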
